A study of Mus musculus with 11 samples.

Results

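The expression of Lrg1 (leucine-rich alpha-2-glycoprotein 1, ENSMUSG00000037095), 1 of the 32285 genes in the count matrices, was followed across the cell types of the mouse brain. The gene was taken from the matrices by its symbol. Single-cell RNA sequencing libraries (10x Genomics 3′ chemistry, 1 mouse per library) had been made from the right brain of 4 groups of C57BL/6 background mice. These were wild-type mice after sham surgery (sham + WT, 3 libraries), wild-type mice after occlusion of the middle cerebral artery with a filament followed by reperfusion (MCAO/R + WT, 2 libraries), Lrg1 knockout mice after sham surgery (sham + Lrg1-/-, 3 libraries) and Lrg1 knockout mice after MCAO/R (MCAO/R + Lrg1-/-, 3 libraries). In the knockout mice the gene was deleted in every cell of the body from birth, so no cell type was targeted. These mice were a separately made C57BL/6N line, and the sources used here do not call the wild-type mice their littermates. The labels of the libraries give neither an age nor a reperfusion time. The methods of the study state an age for each mouse line, in weeks for the wild-type and in months for the knockout mice, and the stated ages differ. Wild-type sham and wild-type MCAO/R mice were compared, with the knockout libraries as the zero level.

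Lrg1 encodes a secreted glycoprotein built of leucine-rich repeats. It binds endoglin (Eng), an accessory receptor for TGF-beta on endothelial cells, and it is known for shifting TGF-beta signalling in endothelium towards the Alk1 receptor (Acvrl1) and Smad1 and Smad5, and for its part in vessel growth in disease. The liver releases it into the blood as an acute phase protein, neutrophils store it in their granules, and cytokines of the IL-6 family acting through Stat3 are known inducers.

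Lrg1 lies on the minus strand of chromosome 17 at chr17:56119678-56122001 (GRCm38, GENCODE annotation). It has 2 exons. The first (chr17:56121861-56122001) holds the 5′ untranslated stretch and the start codon, and the second (chr17:56119678-56120944) holds most of the coding sequence, the stop codon and 264 further bases of 3′ untranslated sequence. The deletion described for the knockout line ran from exon 1 to the stop codon, so these last bases, where 3′ libraries place reads, lie outside it. A transcript that kept them would still have been counted in the knockout. The 195 bases just before the start of the gene are shown because the gene was higher after MCAO/R in many cell types. They lie at chr17:56122002-56122196 (minus strand, RefSeq sequence of GRCm38.p6). The letters CAGGAAG, 1 form of the motif of ETS, the family of many endothelial transcription factors, are in capitals. Shorter parts of these letters, such as GGAA, also occur elsewhere in the stretch and are not marked.

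Lrg1 upstream stretch: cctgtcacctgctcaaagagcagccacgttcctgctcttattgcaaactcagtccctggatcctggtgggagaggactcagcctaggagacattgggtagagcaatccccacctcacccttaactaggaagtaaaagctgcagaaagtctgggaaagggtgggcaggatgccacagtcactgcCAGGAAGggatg

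The ETS letters CAGGAAG, searched on both strands, were found 1 time, beginning at base 184 of this stretch. Of 32851 promoter stretches of the same length, 8.14% held them. The STAT letters TTCNNNGAA (in 5.64% of stretches), the C/EBP letters TTGCNNAA (in 7.95%) and the AP-1 letters TGANTCA (in 5.37%) were not in this window.

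Over all barcodes the 3 sham + Lrg1-/- libraries held 0 UMIs (unique molecular identifiers, 1 per captured transcript) of Lrg1 each, and the 3 MCAO/R + Lrg1-/- libraries held 0, 0 and 1. That single UMI sat in 1 barcode of MCAO/R + Lrg1-/- replicate 5 with 1753 UMIs in all, to which no cell type could be given. The sham + WT libraries held 192, 662 and 280 Lrg1 UMIs, or 1.70, 5.76 and 2.54 per 1000000 UMIs. The MCAO/R + WT libraries held 17868 and 16233, or 132 and 112 per 1000000 UMIs. All knockout libraries thus lay at zero and both injured wild-type libraries far above every sham library, and no library went against its genotype label. The total depth was 37159497 to 171813031 UMIs per library, and 125510 cells were kept after the filters and the removal of doublets.

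Levels below are Lrg1 UMIs per 1000000 UMIs (CPM) summed over the cells of a type in a library. Most Lrg1 came from endothelial cells, which line the vessels and form the blood-brain barrier. In sham + WT mice they held 79.1%, 85.9% and 83.0% of the Lrg1 UMIs of all kept cells, and in MCAO/R + WT mice 79.9% and 77.3%, while making up 26.3% and 20.8% of the cells of those last libraries. Their level was 7.02, 24.5 and 7.63 CPM after sham surgery and 417 and 514 CPM after MCAO/R. The groups were far apart, and sham + WT replicate 2 stood above the other sham libraries. Different clusters held most of the endothelial cells of each group. A pair of them held 2236 and 1387 injured cells against 49 and 41 sham cells, and the 2 largest with sham cells (1848 and 1489) held under 20 injured cells each. The ratio of the means was 35.7 and the log2 fold change 5.20 ± 0.51 (SE), with an adjusted p of 0.000302 in edgeR's quasi-likelihood test with Benjamini-Hochberg adjustment. Of all genes tested in endothelial cells, 16.5% passed in either direction, and by the size of its rise Lrg1 ranked 28 of 16802. The exact permutation test over libraries (3 against 2, two-sided) gave p = 0.1, the smallest value that 10 permutations allow. In bulk sums of this kind, more RNA per cell and more cells with the transcript cannot be told apart, so both are given where they bear on the result.

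Endothelial cells were divided into segments by their markers, with Lrg1 kept out of the clustering. Genes that move with it in the same cells were used, so the segments are not fully independent of it. Of 7502 endothelial cells in sham + WT mice, 4912 were given no segment, as were 3366 of 4951 in MCAO/R + WT mice. The cells were clustered within each group, and the venous cells came from 2 clusters after sham surgery and from 1 after MCAO/R.

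Venous endothelium, the segment through which leukocytes enter the brain, carried most endothelial Lrg1. Its level was 38.4, 109 and 32.1 CPM in sham + WT mice (59.7 ± 42.4, SD, n = 3) and 1883 and 2079 CPM in MCAO/R + WT mice (1981 ± 138, SD, n = 2). Both injured libraries were high, and the groups did not overlap. The ratio of means was 33.2 and the log2 fold change 5.09 ± 0.41 (SE), with an adjusted p of 3.42e-06 by edgeR, where 22.5% of the genes tested in venous cells passed (exact permutation test p = 0.1, the smallest possible). With cells assigned 1 by 1 from marker counts the mean venous level was 270.1 CPM after sham surgery and 2174 CPM after MCAO/R, and the log2 fold change was smaller, at 2.96 (adjusted p = 0.000137).

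The venous cells supplied 94.7%, 95.6% and 86.7% of the endothelial Lrg1 UMIs in the sham + WT libraries and 80.8% and 86.8% in the MCAO/R + WT libraries. Their share of endothelial cells was 8.62% and 8.96% after MCAO/R. The share of the UMIs was thus far above the share of the cells, in injured as in sham mice. Neutrophil tracer genes (S100a8, S100a9 and Retnlg) were at 10.6 and 8.14 CPM in the injured venous cells, against 72891 and 63403 CPM in the neutrophils of the same libraries, and at 0.537 to 5.66 CPM in the sham venous cells.

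**Figure D1:**
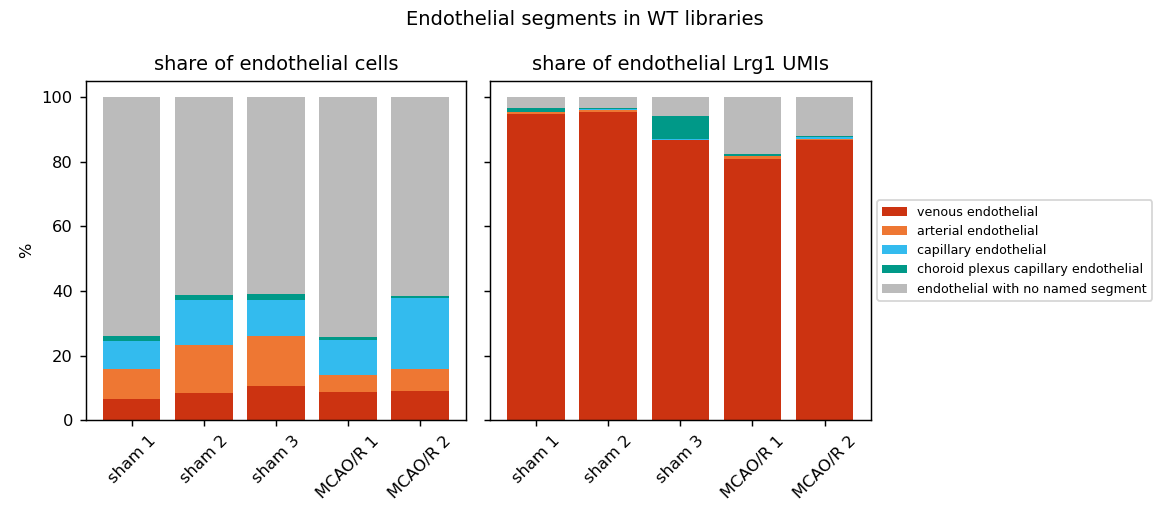
Share of endothelial cells (left, %) and of endothelial Lrg1 UMIs (right, %) taken by each segment, 1 bar per WT library. Venous cells (red) were 6.54% to 10.6% of endothelial cells and held 80.8% to 95.6% of the Lrg1 UMIs.

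Arterial endothelial cells were at 0.28, 0.43 and 0 CPM after sham surgery and at 60.6 and 13.9 CPM after MCAO/R. The value of 0 rested on 432 cells and allows up to 0.489 CPM, the limit of 3 counts. Both injured libraries lay above all sham libraries, but they lay far apart from each other. The log2 fold change was 7.18 ± 0.85 (SE, adjusted p = 0.000591 by edgeR, with 8.42% of genes called), from 3 UMIs in 991 sham cells and 145 UMIs in 299 injured cells. In MCAO/R + WT replicate 1 a single arterial cell held 37 of the 119 UMIs. In replicate 2 the highest arterial cell held 3.

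Capillary endothelial cells, where most exchange across the barrier takes place, were at 0, 1.40 and 0.63 CPM after sham surgery and at 25.6 and 33.2 CPM after MCAO/R. The groups did not overlap. The log2 fold change was 5.31 ± 0.60 (SE, adjusted p = 1.28e-05 by edgeR, with 17.6% of genes called).

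The capillaries of the choroid plexus, which lack a barrier, were at 5.65, 5.97 and 24.9 CPM and at 219 and 277 CPM, from only 24 and 11 cells in the injured libraries. They too did not overlap between groups, and with so few cells no fit was made. Cells of endothelial clusters with no named segment were at 0.39, 1.57 and 0.87 CPM after sham surgery and at 103 and 101 CPM after MCAO/R, and they held 17.7% and 11.9% of the endothelial Lrg1 UMIs there. Some of these clusters were led by genes of other cell types. After sham surgery these were a cluster of 276 cells led by the microglial genes Lyz2, Tyrobp and C1qb, one of 615 cells with the leukocyte gene Ptprc among its leading genes, one of 157 cells led by the smooth muscle genes Tagln, Myl9 and Myh11, and one of 37 cells with the fibroblast genes Lum, Dcn and Col1a1 among its leading genes, with 2, 11, 2 and 0 Lrg1 UMIs. After MCAO/R one of 162 cells with the myeloid genes Lilrb4a and Plek among its leading genes was at 287 and 362 CPM (700 UMIs), and one of 300 cells led by the choroid plexus gene Ttr was at 303 and 399 CPM (190 UMIs). The other 8 injured clusters with no named segment lay at 18.2 to 135 CPM, and all sham clusters with no named segment at 0 to 7.87 CPM. With cells assigned 1 by 1 from marker counts, the log2 fold change of Lrg1 in all endothelial cells was 5.15 (adjusted p = 0.00018).

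The segments were also compared within the 5 wild-type libraries, with the library as a block and the surgeries averaged. Venous cells exceeded capillary cells by 6.35 ± 0.25 (log2, SE, adjusted p = 9.05e-16 by edgeR), where 39.5% of genes were called in either direction, and arterial cells by 6.89 ± 0.23 (adjusted p = 2.76e-17), where 35.8% were called. Arterial and capillary cells were not told apart at this depth (-0.54 ± 0.87, adjusted p = 0.687, with 32.1% called). The size of the rise after MCAO/R was not shown to differ between segments. It was 0.32 lower in venous than in capillary cells (-0.32 ± 1.08, adjusted p = 0.925, 8.53% called), 2.13 lower in venous than in arterial cells (-2.13 ± 0.96, adjusted p = 0.203, 8.08% called) and 1.82 higher in arterial than in capillary cells (1.82 ± 1.86, adjusted p = 0.752, 4.16% called). The difference between venous and capillary cells passed when cells were assigned 1 by 1 from marker counts (-2.63), and that between venous and arterial cells passed with no filter on low counts (-2.11) and without MCAO/R + WT replicate 2 (-2.90), while the difference between arterial and capillary cells turned to -0.30 when cells were thinned to 1000 UMIs.

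The rise in venous cells lay in the number of transcripts per cell as well as in the share of cells. After sham surgery 10.5%, 25.1% and 13.7% of venous cells held at least 1 Lrg1 UMI, and the highest cell held 63, 71 and 62. After MCAO/R 88.8% and 87.7% held at least 1, and the highest cell held 501 and 590. The sham share depends on how the segment is drawn. In the Ackr1-led endothelial cluster made over all groups together, 34.4% of 276 sham and 93.7% of 364 injured cells held Lrg1. Cells with 20 or more UMIs made up 49.8% and 44.5% of venous cells in the injured libraries, against 1, 10 and 2 cells in the sham libraries. With every cell thinned to 1000 UMIs, the share of venous cells with Lrg1 was 1.75%, 7.10% and 2.41% after sham surgery and 61.9% and 64.1% after MCAO/R, so the groups kept their order at equal depth. The median depths were 11879 to 19279 UMIs in sham and 12587 to 17456 in injured venous cells.

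**Figure D2:**
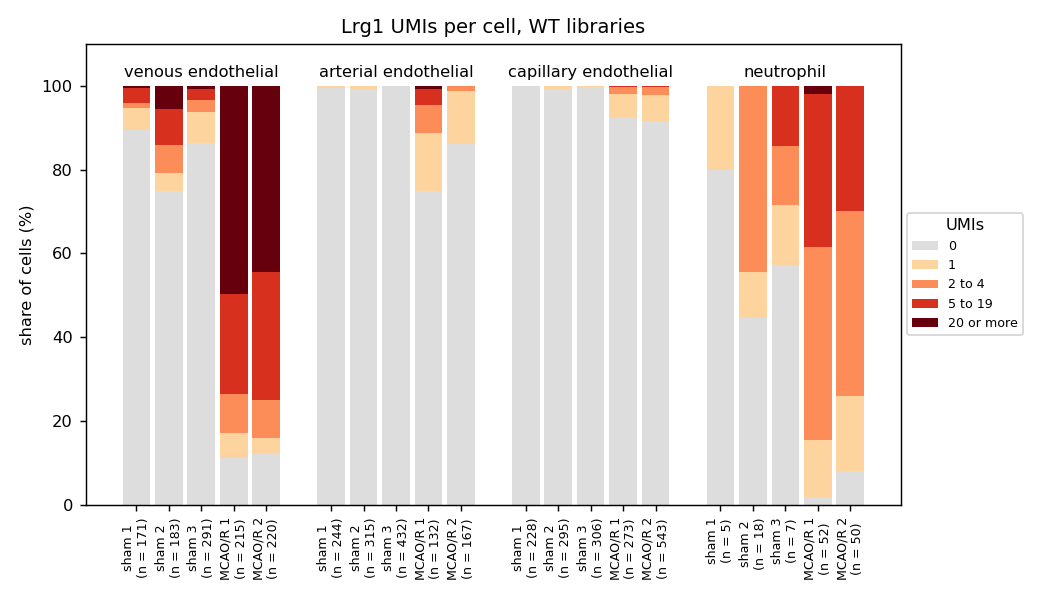
Share of cells (%) with 0, 1, 2 to 4, 5 to 19 and 20 or more Lrg1 UMIs, 1 bar per WT library, for 3 endothelial segments and neutrophils (n, cells). Cells with 20 or more UMIs were 49.8% and 44.5% of venous cells after MCAO/R, and neutrophils there mostly held 1 to 19.

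Neutrophils, the first blood leukocytes to enter injured brain, had the highest level among the named types outside the endothelium. They were at 59.1, 262 and 223 CPM after sham surgery, from 5, 18 and 7 cells, and at 905 and 724 CPM after MCAO/R, from 52 and 50 cells. The groups did not overlap, and the ratio of means was 4.49. The sham libraries each held fewer cells than the 20 asked for in a fit, so the difference was given only the exact permutation test (p = 0.1, the smallest possible). In the injured libraries 98.1% and 92.0% of neutrophils held Lrg1, and 63.5% and 56.0% did after thinning to 1000 UMIs. The neutrophils of the MCAO/R + Lrg1-/- libraries (10, 281 and 1248 cells) held 0 Lrg1 UMIs, which in the last of them allows up to 0.529 CPM.

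Across cell types after MCAO/R, the order of the mean levels began with venous endothelial cells, neutrophils, choroid plexus capillary cells and the endothelial clusters with no named segment, and no 2 neighbours among these overlapped between libraries. Border-associated macrophages came next at 32.4 and 42.7 CPM. From there down to oligodendrocytes, through arterial and capillary endothelial cells, vascular smooth muscle cells, microglia, astrocytes, neurons or neuroblasts and ciliated ependymal cells, each type overlapped the next. Pericytes (11.2 and 6.48 CPM), fibroblasts (7.76 and 8.43 CPM) and choroid plexus epithelial cells (5.10 and 6.197 CPM) came last. Monocytes or monocyte-derived macrophages were at 77.3 and 209 CPM from 24 and 9 cells and were left out of this order, where their mean of 143 CPM would stand between the choroid plexus capillary cells and the endothelial clusters with no named segment, whose levels they overlap. With clustering at resolution 1 they were at 25.2 and 128 CPM from 85 and 31 cells, so their place depends on the clustering. Types with under 20 cells in a library were left out, with neutrophils and choroid plexus capillary cells as exceptions.

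**Figure D3:**
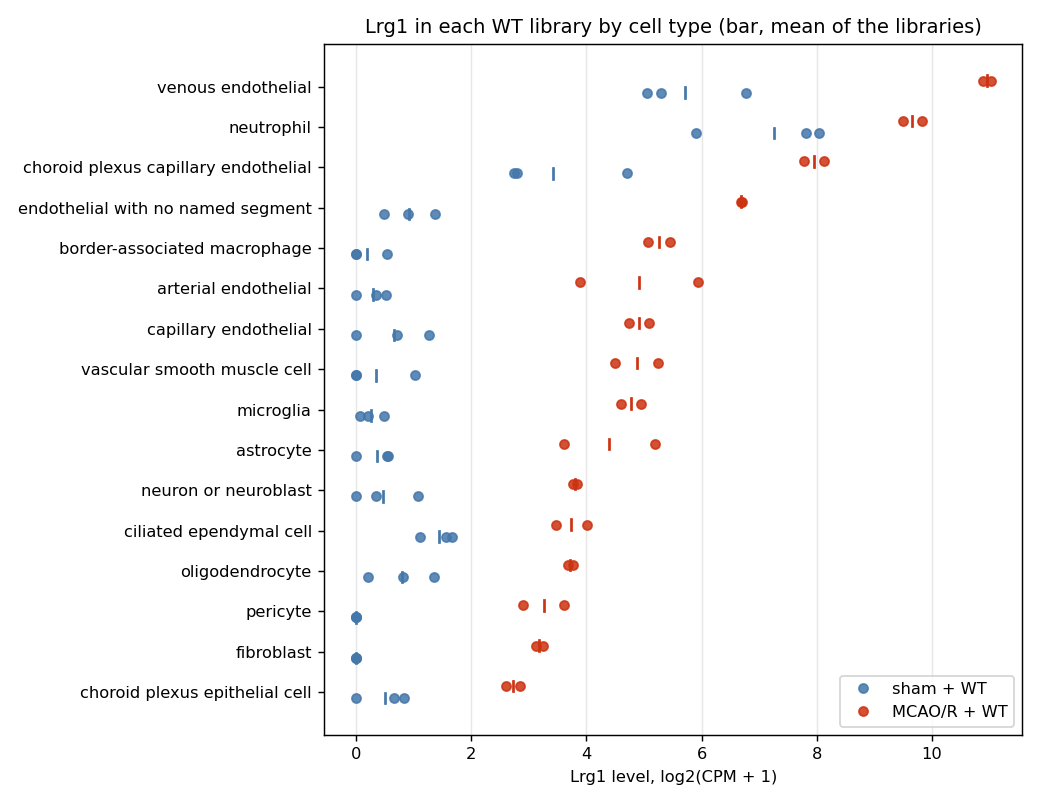
Lrg1 level, log2(CPM + 1), in each WT library (points) by cell type and endothelial segment, with the mean of the log2 values as a bar. In each type shown the MCAO/R + WT libraries lie to the right of the sham + WT libraries, and venous endothelial cells and neutrophils lie farthest to the right.

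In sham + WT mice the order of the means was neutrophils, venous endothelial cells, choroid plexus capillary cells and monocytes or monocyte-derived macrophages (0, 14.8 and 6.21 CPM). With clustering at resolution 1 the monocytes or macrophages were at 0, 3.31 and 0.88 CPM. Neutrophils and venous cells overlapped, and venous cells did not overlap the choroid plexus capillary cells below them. Every other type had a mean under 2 CPM and overlapped its neighbours. Pericytes held 0 UMIs in each sham library, which allows up to 2.27 to 2.59 CPM.

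Many types outside the endothelium also held Lrg1 UMIs after MCAO/R. Oligodendrocytes, the myelin-forming cells, served as the type against which low shares were read, and whether they express the gene was not tested. Oligodendrocytes were at 0.75, 0.15 and 1.56 CPM after sham surgery and 11.7 and 12.6 CPM after MCAO/R. One cluster held 2460 injured against 66 sham oligodendrocytes, and the largest with sham cells (2198) held under 20 injured ones. This was a rise of 3.90 ± 0.62 (log2, SE, adjusted p = 0.00328 by edgeR, with 19.5% of genes called). The share of oligodendrocytes with a UMI after MCAO/R was 15.1% and 15.5% at median depths of 15542 and 13537 UMIs, and 1.43% and 1.05% after thinning to 1000 UMIs. Of the oligodendrocytes with Lrg1, 83.9% and 87.7% held a single UMI. Of the sham oligodendrocyte UMIs, 20 sat in only 3 cells of replicate 3, and 18 of these in a single cell, while 14 sat in 3 cells of replicate 1, 12 of them in a single cell. With clustering at resolution 1 the sham levels were 0.117, 0.156 and 0.159 CPM and the injured levels 10.6 and 12.6 CPM, and the log2 fold change was 6.14 (adjusted p = 8.34e-06).

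Microglia, the resident macrophages of the brain, were at 0.05, 0.40 and 0.15 CPM after sham surgery and at 23.1 and 30.01 CPM after MCAO/R. Here too different clusters held most cells of each group, with 5709 injured against 237 sham cells in one and 33 against 4901 in another, and in the 8 clusters with at least 20 cells of both groups the level was 15.5 to 36.8 CPM after MCAO/R and 0 to 0.476 CPM after sham surgery. The groups were well separated, and on the log2 scale the rise was 6.98 ± 0.52 (SE, adjusted p = 4.21e-05 by edgeR, with 15.6% of genes called). The share of microglia with a UMI after MCAO/R was 18.003% and 17.04% at median depths of 10973 and 9172 UMIs, close to the oligodendrocyte share, and 2.06% and 2.61% after thinning, above the oligodendrocyte share in both libraries. Of the microglia with Lrg1, 73.8% and 69.1% held a single UMI, and the highest cell held 11 and 13.

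Border-associated macrophages, which sit along vessels and membranes, were at 0, 0.46 and 0 CPM after sham surgery and rose by 7.54 ± 0.64 (log2, SE, adjusted p = 0.000309 by edgeR, with 6.43% of genes called). Vascular smooth muscle cells were at 0, 1.03 and 0 CPM and at 36.9 and 21.7 CPM, a rise of 6.40 ± 0.85 (log2, SE, adjusted p = 0.0232 by edgeR, with 1.17% called). That call was lost whenever any 1 of the 5 wild-type libraries was left out, when the estimate ran from 5.81 to 9.89.

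Ciliated ependymal cells were at 2.19, 1.96 and 1.14 CPM and at 10.1 and 15.1 CPM, and neurons or neuroblasts at 0.27, 1.10 and 0 CPM and at 13.4 and 12.6 CPM. Neither passed the test across all genes (2.76, adjusted p = 0.105, with 0.648% called, and 4.78, adjusted p = 0.378, with 0.0076% called), although the libraries of the groups did not overlap. Both passed with no filter on low counts (2.79, adjusted p = 0.00902, and 4.77, adjusted p = 5.64e-06), and ependymal cells also with only the groups compared (2.72, adjusted p = 0.0278). In astrocytes, pericytes and choroid plexus epithelial cells the gene did not pass the filter of the fit on low counts. With no filter the log2 fold change was 5.88 in astrocytes (adjusted p = 9.61e-16), 6.15 in pericytes (adjusted p = 4.50e-06, a fitted value that depends on the prior count since all their sham libraries were at 0) and 3.29 in choroid plexus epithelial cells (adjusted p = 0.172). Fits with no filter take in genes near zero. In neurons or neuroblasts the filter alone moved the call at almost the same estimate, and in astrocytes the sham libraries held 4 UMIs. The adjusted p-values with no filter are therefore not read as a measure of the spread between mice. Astrocytes were at 0.45, 0.47 and 0 CPM and at 35.6 and 11.1 CPM. The 42 pericyte UMIs of the injured libraries each sat in a cell of its own, and the share of pericytes with a UMI (6.52% and 2.94%) lay below the oligodendrocyte share, at median depths of 5344 and 4254 UMIs that were also lower.

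Free RNA of broken cells can give UMIs in droplets of other types. Were it drawn from endothelial cells as a whole, it would carry Lrg1 and other endothelial transcripts in their ratio. The make-up of the free RNA was not measured. The number of Lrg1 UMIs per UMI of 10 endothelial tracer genes (Cldn5, Flt1 and others) was therefore set against that ratio in the endothelial cells of the same library. In oligodendrocytes after MCAO/R the observed ratio was 1.11 times (0.956 to 1.29) and 1.51 times (1.37 to 1.65) the endothelial ratio. In neurons or neuroblasts it was 1.01 and 0.957 times. The interval held 1 in neurons or neuroblasts of both libraries and in oligodendrocytes of replicate 1, and it lay above 1 in oligodendrocytes of replicate 2. Oligodendrocytes of the sham libraries were at 2.74, 0.430 and 12.1 times, from 14, 3 and 20 Lrg1 UMIs.

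The ratio was higher in microglia, at 2.55 times (2.39 to 2.73) and 3.46 times (3.27 to 3.66). In border-associated macrophages it was 1.27 times (1.05 to 1.52) and 2.60 times (2.04 to 3.27), and the first interval overlapped that of oligodendrocytes. In vascular smooth muscle cells it was 2.004 and 1.19 times and in astrocytes 2.04 and 0.848 times. The intervals of the replicates did not overlap in border-associated macrophages, smooth muscle cells, astrocytes, microglia or oligodendrocytes. Pericytes (0.366 and 0.199 times) and ciliated ependymal cells (0.279 and 0.365 times) lay below the endothelial ratio. Neutrophils lay at 77.0 and 71.8 times. Monocytes or monocyte-derived macrophages lay at 7.90 times (4.76 to 12.3) in replicate 1, from 24 cells, and had under 20 cells in replicate 2. The tracers were themselves at 23716, 25268 and 26184 CPM in endothelial cells after sham surgery and at 18886 and 21573 CPM after MCAO/R. With clustering at resolution 1 they were at 1368 and 1435 CPM in injured pericytes and at 2085 and 1777 CPM in injured ependymal cells. Injured oligodendrocytes were at 382 and 318 CPM. Whether such cells make tracer transcripts themselves, which would lower their ratio, was not tested. The intervals (exact Poisson, 95%) cover counting error only, and what free RNA of venous cells alone would give was not tested.

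**Figure D4:**
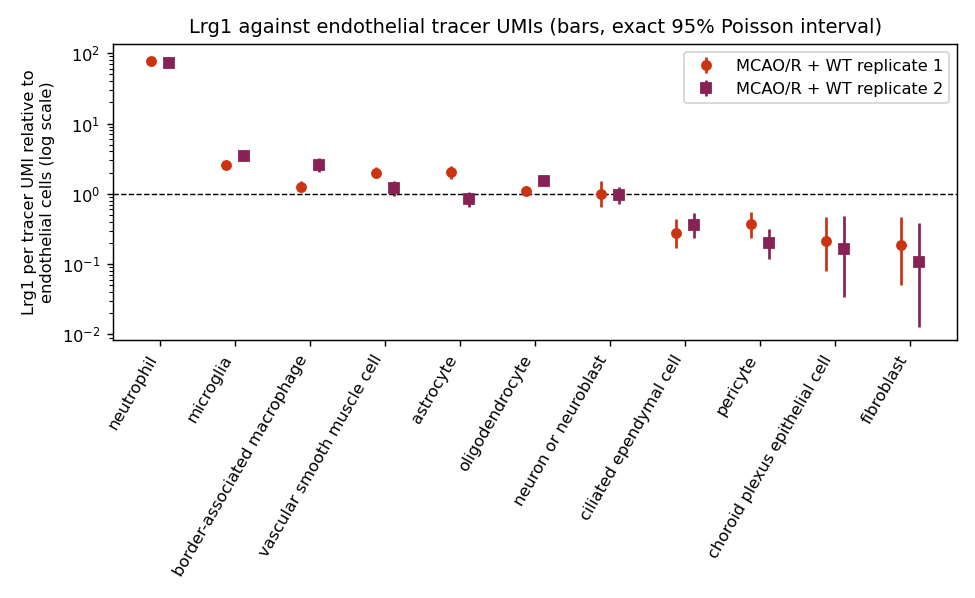
Lrg1 UMIs per endothelial tracer UMI in each cell type with at least 20 cells in both MCAO/R + WT libraries, relative to endothelial cells of the same library (log scale, line at 1). Neutrophils lie at 77.0 and 71.8, microglia at 2.55 and 3.46, neurons or neuroblasts at 1.01 and 0.957, and oligodendrocytes at 1.11 and 1.51.

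Genes around Lrg1 in its known pathways were read in endothelial cells, MCAO/R + WT against sham + WT. Of 23 genes of TGF-beta and BMP signalling, all tested, 2 were higher and 3 lower, with a median log2 fold change of 0.08 against 0.00 over all genes tested, of which 7.8% were called higher and 8.69% lower. Endoglin, the receptor that Lrg1 binds, was at 595, 646 and 735 CPM and at 587 and 610 CPM and did not pass (-0.09 ± 0.16, adjusted p = 0.762 by edgeR). Acvrl1 was at 360, 383 and 384 CPM and at 343 and 384 CPM (0.00 ± 0.12, adjusted p = 0.998). Both receptors overlapped between groups.

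Among the transducers Smad1 rose by 0.56 ± 0.15 (adjusted p = 0.0223), while Smad5 (-0.31, adjusted p = 0.187) and Smad9 (-0.70, adjusted p = 0.147) did not pass. Of the inhibitory Smads, Smad6 rose by 0.64 ± 0.17 (adjusted p = 0.0243) and Smad7 fell by 0.45 on the log2 scale (adjusted p = 0.0439). The ligand Tgfb2 fell by 1.86 on the log2 scale, from 257, 271 and 332 CPM to 66.6 and 86.7 CPM (adjusted p = 0.000233), and the co-receptor Tgfbr3 fell by 0.53 (adjusted p = 0.0195). The target genes Id1, Id2 and Id3 did not pass, at 0.22, 0.08 and 0.10. In venous cells, which held most of the Lrg1, 1 gene of this list was higher and 4 were lower of 22 tested, where 22.5% of all genes were called. There Smad1 (0.17, adjusted p = 0.504) and Smad6 (-0.04, adjusted p = 0.891) did not pass, and the receptor Tgfbr2 was higher (0.66, adjusted p = 0.00232). Without sham + WT replicate 3 or without MCAO/R + WT replicate 1, the calls of this list fell from 5 to 1, and without sham + WT replicate 2 to 3.

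Of 18 genes of the IL-6 family and Stat3, 17 were tested, 4 were higher and 2 lower, beside 7.8% higher and 8.69% lower of all genes tested, with a median of 0.33. The transcription factor Cebpd rose from 144, 123 and 128 CPM to 505 and 495 CPM (1.97 ± 0.21, adjusted p = 7.43e-05). The receptor chains Il6ra (0.92, adjusted p = 0.00141) and Osmr (0.75, adjusted p = 0.0155) and the ligand Osm (1.98, adjusted p = 0.0247) rose as well, and the receptor Lifr and the kinase Tyk2 fell by 0.94 and 0.65. Osm was at 2.56, 2.09 and 1.36 CPM and at 10.8 and 4.05 CPM, and it was also a leading gene of a microglial cluster. The part of the endothelial clusters led by genes of other cell types in its value, and in those of the other genes of these lists, was not tested. Stat3 itself (0.33, adjusted p = 0.243) and its target Socs3 (0.09, adjusted p = 0.799) did not pass. In venous cells 5 genes of this list were higher and 3 lower of 16 tested, beside 22.5% of all genes in either direction, and Osmr did not pass there (0.22, adjusted p = 0.516). Without MCAO/R + WT replicate 1 the calls of this list were 2.

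Of 16 genes of TNF and IL-1 signalling, all tested, 5 were higher and none was lower by edgeR, beside 7.8% and 8.69% of all genes tested, with a median of 0.55. The IL-1 receptor Il1r1 rose from 114, 164 and 138 CPM to 531 and 747 CPM (2.25 ± 0.25, adjusted p = 9.51e-05). The decoy receptor Il1r2 (3.64, at most 7.29 CPM), the TNF receptor Tnfrsf1a (1.25) and the NF-kappaB subunits Nfkb2 (0.58) and Rela (0.52) rose too. Il1r2 is also a neutrophil marker, and neutrophil tracers in endothelial cells were at 2.24 to 5.06 CPM after sham surgery and at 15.4 and 9.04 CPM after MCAO/R, whose part in these values was not tested. Without MCAO/R + WT replicate 1 the calls of this list were 3.

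Of 17 acute phase proteins, 9 were tested, 6 were higher and none was lower by edgeR, beside 7.8% and 8.69% of all genes tested, with a median of 4.17. The other 8 lay under the filter on low counts, and a member may have passed it only through the group where it was high. The count and the median thus describe those 9 alone and are no test of the list against all genes. The list was also chosen with earlier results of these data known. Serpina3n, a protease inhibitor, rose from 0.09, 0.22 and 0.07 CPM to 165 and 339 CPM (10.98 ± 0.75, adjusted p = 2.43e-06), and Lcn2, a carrier of bacterial siderophores, from 11.7, 22.5 and 9.29 CPM to 3589 and 2766 CPM (7.83 ± 1.08, adjusted p = 0.000405). Itih4 (5.47), Saa3 (4.63), Timp1 (4.17) and Cp (0.79) were the others. Hp, C3 and C4b did not pass.

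Of 8 leukocyte adhesion molecules, all tested, only the venular chemokine receptor Ackr1 was called higher, from 8.27, 15.04 and 5.53 CPM to 160 and 57.7 CPM (3.57 ± 0.85, adjusted p = 0.0128), with a median of 0.13 over the list. That is 1 of 8, near the 16.5% of all genes called in either direction. Icam1 and Vcam1 did not pass (0.31 and 0.33). In venous cells 2 of 8 were higher, Ackr1 (3.60, adjusted p = 0.000125) and the selectin Sele (1.85, adjusted p = 0.0148), and Icam2 was lower (-0.55, adjusted p = 0.0169), a count of 3 of 8 beside the 22.5% of all genes called there. Ackr1 was among the markers that named the venous segment, so its venous value is not independent of the naming. In endothelial cells as a whole no member was called without sham + WT replicate 1, without sham + WT replicate 3 or without MCAO/R + WT replicate 1, and 2 genes were called without sham + Lrg1-/- replicate 2.

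The genes whose pattern was most like that of Lrg1 were taken by Pearson correlation of log2(CPM + 1) over the 88 sums of a wild-type library and a cell type or segment with at least 20 cells, among 12649 genes. The sums of a library share its depth and its surgery. Ackr1 was also among the markers that named the venous segment, so its place here is not independent of the naming. The closest was Lcn2 (r = 0.902), followed by Ackr1 (0.745), Bst1 (0.719), Doc2b (0.710), AA467197 (0.696), Serpina3n (0.691), Cd300lf (0.677) and Fkbp5 (0.674). Within the 35 sums from MCAO/R mice Lcn2 was at r = 0.821 and Bst1, an ectoenzyme of leukocytes and vessels, at 0.781, while Serpina3n fell to 0.325. Within the 53 sums from sham mice Lcn2 was at 0.772, Cd300lf, a receptor of myeloid cells, at 0.045 and Serpina3n at 0.02. With endothelial sums left out (64 remained, from both surgeries), Lcn2 was at 0.906 and Cd300lf at 0.878. Leaving them out does not remove endothelial RNA that reached droplets of other types. Its part in these values was not tested.

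Venous Lcn2 was at 58.8, 98.8 and 39.8 CPM in sham + WT mice and at 15083 and 10131 CPM in MCAO/R + WT mice, and, with Lrg1 deleted, at 186, 77.6 and 858 CPM in sham + Lrg1-/- mice and at 4525, 6933 and 5319 CPM in MCAO/R + Lrg1-/- mice. It was therefore high in injured mice of both genotypes, with the injured knockout libraries below the injured wild-type ones. Venous Ackr1 was at 43.2, 67.7 and 24.5 CPM and at 793 and 254 CPM in wild-type mice, and at 142, 73.0 and 299 CPM and at 1676, 2198 and 1122 CPM in knockout mice. Here the injured knockout libraries lay above the injured wild-type ones, in cells named partly by Ackr1 itself. Venous Doc2b was at 1.61, 0.808 and 0.329 CPM and at 157 and 254 CPM in wild-type mice, and at 2.83, 3.23 and 2.94 CPM and at 13.6, 11.6 and 17.1 CPM in knockout mice. Both injured wild-type libraries thus lay far above the injured knockout ones. Venous Fkbp5, a co-chaperone of the glucocorticoid receptor, was at 245 and 351 CPM in injured wild-type mice and at 90.9, 106 and 151 CPM in injured knockout mice. In all endothelial cells the log2 difference of injured knockout from injured wild-type mice was fitted with edgeR, where 25.2% of all genes passed. It did not pass for Lcn2 (-1.36), Ackr1 (1.70), Bst1 (-0.24) or Cd300lf (-1.12). Doc2b (-4.19), Fkbp5 (-1.71) and Serpina3n (-1.44) passed as lower in the knockout, and AA467197 (1.78) passed as higher. In sham mice, where 21.8% of all genes passed, Lcn2 (3.03), Ackr1 (2.58) and Doc2b (1.62) passed as higher in the knockout. Bst1, AA467197, Serpina3n, Cd300lf and Fkbp5 did not pass there. These values are a description, since the genes were chosen on these wild-type libraries. The genotypes also differ in their source and in the age stated for the line, and genotype, source and age cannot be told apart.

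**Figure D5:**
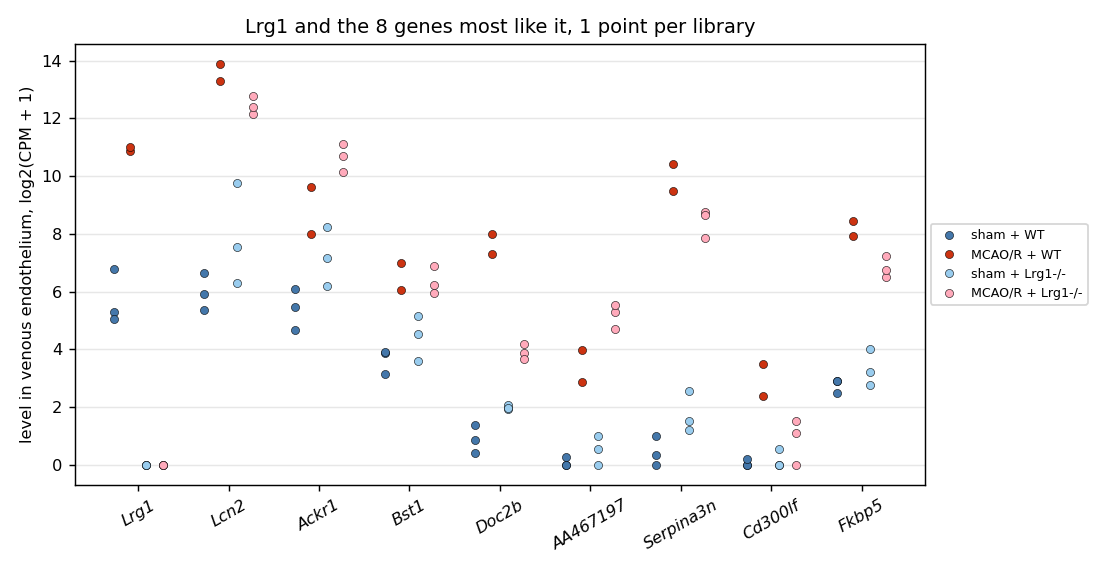
Level in venous endothelial cells, log2(CPM + 1), of Lrg1 and the 8 genes most like it, 1 point per library and 1 colour per group. Lrg1 lies at 0 in all Lrg1-/- libraries, while Lcn2 and Ackr1 are high after MCAO/R in both genotypes and Doc2b is lower in the injured Lrg1-/- libraries than in the injured WT ones.

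The genes beside Lrg1 were read in endothelial cells of knockout against wild-type mice. On the side of lower coordinates these were Plin5 and Plin4, which coat lipid droplets, and Hdgfl2, and on the side of higher coordinates Sema6b, a semaphorin, Tnfaip8l1 and Mydgf, a secreted growth factor. After sham surgery 2 of 6 were called, where 21.8% of all genes were. Sema6b, whose end lies 1084 bases from the start of Lrg1, was at 13.3, 13.7 and 13.02 CPM in wild-type and at 22.6, 17.1 and 19.97 CPM in knockout mice (0.60 ± 0.14, adjusted p = 0.0123 by edgeR). That call was lost with the replicate block (0.58, adjusted p = 0.111) and after thinning to 1000 UMIs (0.66, adjusted p = 0.14998). Plin4 was at 0.37, 0.13 and 0.07 CPM and at 1.09, 1.06 and 1.22 CPM (2.61 ± 0.83, adjusted p = 0.0415), but its estimate turned to -0.44 after thinning to 1000 UMIs, and it did not pass with the replicate block (1.74, adjusted p = 0.1904) or by marker assignment (1.40, adjusted p = 0.514). The groups did not overlap in either gene.

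After MCAO/R 1 of 6 was called, where 25.2% of all genes were. Mydgf was at 67.9 and 58.9 CPM in wild-type and at 109, 119 and 88.3 CPM in knockout mice (0.67 ± 0.15, adjusted p = 0.00663). Its call was lost with only the groups compared (0.70, adjusted p = 0.0609), and without MCAO/R + WT replicate 2 its estimate was 0.55. Plin4 was not called after MCAO/R. Its call in sham mice was lost without any 1 of the 3 sham + Lrg1-/- libraries. That call was also lost without MCAO/R + Lrg1-/- replicate 2, or without sham + WT replicate 2 or 3. Sema6b was not called after MCAO/R (-0.23 ± 0.15, adjusted p = 0.3003).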

How the data were processed

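The authors aligned and counted the reads with Cell Ranger (7.0.1 per the file headers; STAR and mm10 per the submitters' processing notes) and deposited raw UMI counts per gene and barcode, with whole-number counts in 3 files per library. Barcodes (155804) with more than 500 genes, more than 1000 UMIs and less than 25% mitochondrial UMIs were kept (132437), as in the study's methods. Scrublet-like doublet scores removed 6927 more, by the automatic threshold in 5 libraries and as the top 6% where that marked under 0.5%. Between 0.233% and 1.24% of the barcodes of the smaller of any 2 libraries occurred in both. Cells were clustered (scanpy 1.11.5, leidenalg 0.10.2) on a graph balanced over libraries and named when at least 3 fixed markers were raised and no other type came close. Of 125510 cells, 103111 were named and 22399 were not, and rebuilt names can differ from the study's own.

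UMIs were summed per library and cell type (at least 20 cells) and tested with edgeR 4.0.16 (quasi-likelihood, TMM, filterByExpr, all 4 groups in 1 fit, R 4.3.3), with p-values adjusted by Benjamini-Hochberg over all genes tested and a threshold of 0.05. The SE beside an edgeR estimate was derived as the absolute log2 fold change over the square root of the F statistic of its test. DESeq2 1.42.0 was an alternative. The study compared single cells, which are not replicates. In the filtered surgery and genotype fits p-values measure the spread between mice. In the segment fits, with the library as a block, they measure the spread between segments within the 5 wild-type mice. The Lrg1-/- libraries share the surgery fits but give no spread for Lrg1, which they lack. On simulated counts 100% of genes changed by log2 2 and 39% of those changed by log2 1 were recovered in the endothelial comparison (16404 genes), and 100% and 66% in that of venous with capillary cells (12507 genes), with 5 false calls in each. The simulation gave every gene the same spread (dispersion 0.05) with no library effect, and it changed only genes with mean counts over 20. It does not cover genes that vary more, as Lrg1 may, or genes near the floor. Other genes were named as the 8 most correlated with Lrg1, as called members of the lists (up to 6 a list) with the receptors or ligands needed to describe them, and as the 3 nearest genes on each side. The gene, the lists and the markers were chosen with earlier results of these data known. Proteins were not analysed here.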

Additional observations from a re-analysis of the deposited data

Results flagged for a closer look

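Cells to which no type was given entered no comparison, and they held Lrg1 above the level of every knockout library. They were at 88.4 CPM in MCAO/R + WT replicate 1 (1714 UMIs in 1170 cells) and at 195 CPM in replicate 2 (1302 UMIs in 306 cells), or 9.93% and 8.35% of the Lrg1 UMIs of those libraries. In sham + WT mice such cells were at 2.91, 9.73 and 2.80 CPM. In the knockout libraries they held 0 UMIs, apart from 1 UMI in MCAO/R + Lrg1-/- replicate 5. Most of this Lrg1 lay in 1 cluster of 116 cells that carried endothelial and mural markers together (Rgs5, Vtn and Higd1b led it), with 2355 UMIs, 562 CPM and a UMI in 57.8% of its cells. Another cluster of 98 cells with under 3 raised markers, led by Mgp, Igfbp4 and Slc39a1, held 319 UMIs, at 1394 CPM in replicate 1 (70 cells) and 390.4 CPM in replicate 2 (28 cells). What these cells are, joined cells included, was not tested. With 2 or 3 mice a group, no group was large enough for a test of a single outlying library.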

How the results depend on the processing

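For Lrg1 itself, 186 alternative values of the change after MCAO/R kept their direction and side of the threshold, and so did all 36 of the differences between segments. Ciliated ependymal cells passed with no filter (2.79) and with only the groups compared (2.72), neurons or neuroblasts passed with no filter (4.77), and vascular smooth muscle cells no longer passed with DESeq2 (6.46), with the replicate block (5.77) or without any 1 of the WT libraries (5.81 to 9.89). The change compared between segments moved as stated for marker-assigned cells (-2.63, venous against capillary), for no filter (-2.11) and leave-one-out fits (-2.90 to -0.69, venous against arterial), and reversed after thinning (-0.30, arterial against capillary). Mean levels after MCAO/R moved in oligodendrocytes with doublets kept (14.2 CPM), in venous cells after thinning (1673 CPM) and by marker assignment (2174 CPM, and 270.1 CPM in sham), and in neutrophils after thinning (977 CPM).

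Replicate numbers were not used to pair the mice in the main fits. Deviations from the group mean in endothelial cells correlated at -0.05 to 0.07 in same-numbered mice and at -0.12 to 0.08 in others. With 2 MCAO/R + WT mice the deviations of that group mirror each other, so these correlations cannot exclude pairing. With the replicate block the lists had 1 (TGF-beta), 3 (IL-6), 3 (TNF and IL-1) and 0 (adhesion) calls, and no neighbour was called in sham mice (0). Adhesion genes called were 3 after thinning, 2 by marker assignment, 2 with no filter and 2 with only the groups compared, and TNF and IL-1 genes 8 with no filter. Leaving out 1 library gave 1 to 6 (TGF-beta), 2 to 8 (IL-6), 3 to 6 (TNF and IL-1) and 0 to 2 (adhesion) calls. Neighbours called in sham mice were 0 after thinning, 1 by marker assignment and 1 to 2 without a library, and after MCAO/R 0 with only the groups compared and 0 to 1 without a library. Reversals were Hdgfl2 in sham (thinned -0.20, marker assignment -0.076, replicate block -0.0024, without a library -0.0098 to 0.080) and after MCAO/R (doublets kept 0.0082, without a library -0.083 to 0.044), Plin4 (sham thinned -0.44, MCAO/R without a library -0.78 to 0.73) and Tnfaip8l1 (MCAO/R, -0.017 to 0.27). DESeq2 gave no adjusted p (NA) for ependymal cells and neurons. Depth limits statements on types under 20 cells a library.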
